A study of Mus musculus with 24 samples.

Results

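The 10 genes described here encode enzymes that build or sulfate chondroitin and dermatan sulfate, the sugar chains of matrix proteoglycans. They were chosen by name, as the rows of Chst11, Chst12, Chst14, Chst15, Chst3, Chst1, Chsy1, Chsy3, Chpf and Dse among the 53801 genes of the deposited table, and all 10 were found. Their RNA was measured in murine pancreatic stellate cells (PSC), the fibroblast precursors of the pancreas, cultured with or without pancreatic cancer cells behind a porous membrane. PSC came from wild-type C57BL/6J mice of 7 to 10 weeks, with 4 to 10 pancreata pooled for an isolation, and were used at passages 1 to 2. The cancer cells were KPC cells, a murine line that carries a Trp53 R172H allele, among alleles switched on by p48-Cre, a driver active in the pancreas. The standard model kept the KPC cells on the floor of the well, distant from the PSC on the insert. The inverse model held them on the underside of the membrane that carried the PSC, where they had attached before the PSC were seeded. In the inverse model, PSC and KPC cells shared the culture from PSC seeding, 24 h before the counted time began. In the standard model they did so only from its start, so exposure at a given time label was longer in the inverse model. The medium in which PSC were seeded also differed between the models. The membrane had pores of 1 µm in both models. Control PSC were kept without KPC cells in the same set-ups, and RNA was taken at 24 h and 72 h, which gave 8 groups of 3 libraries, 24 in all. Each library took 450 ng of RNA (standard) or 120 ng (inverse). Effects of this amount, of exposure time, of the seeding medium and of the position of the KPC cells cannot be told apart. The methods call the 3 libraries of a group biological replicates, and p-values measure the spread between them.

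Chondroitin sulfate is a chain of alternating glucuronic acid and N-acetylgalactosamine that is started on a serine of a core protein and lengthened in the Golgi. Chsy1, Chsy3 and Chpf belong to the polymerase that adds these sugars in turn, and Dse, an epimerase, turns glucuronic acid into iduronic acid, which makes the chain dermatan sulfate. Sulfotransferases then place sulfate on set positions, mainly position 4 or position 6 of N-acetylgalactosamine, and the pattern decides which growth factors and matrix proteins the chain can hold. In the desmoplastic stroma of pancreatic cancer, proteoglycans with such chains, versican among them, are abundant products of fibroblasts.

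Among the 10 enzymes, Chst11, which sulfates position 4 of chondroitin, had a mean 1.98 to 2.18 times that of control PSC in the co-cultures of both models and both time points. Its difference passed the main test only in inverse co-culture at 72 h. Chst12, which catalyses the same reaction and had a higher level, had a lower mean in each co-culture, although its differences did not pass the test. Of the polymerase genes, Chpf fell in inverse co-culture at 72 h, a call that was lost under another scaling of the libraries. Chsy3 had lower means in every co-culture without passing the test. The highest level over all libraries was 1.52 times the lowest for Chst14, 1.72 times for Chsy1 and 1.71 times for Dse, and Chst3 was close to 0 throughout.

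Values are FPKM, the fragments of a gene divided by its length and by the counted fragments of the library, and genes were tested where 3 or more of the libraries in the comparison exceeded an FPKM of 1. Differences are on the scale of log2(FPKM + 0.5) with their standard error (SE) from limma, whose moderated two-sided test with Benjamini-Hochberg adjustment over all genes tested was passed at an adjusted p under 0.05. The libraries held 15932737 to 24798761 counted fragments with a median of 18860269, and 12277 to 13307 genes had an FPKM above 1. Of 13 stellate cell and fibroblast markers, 12 were above 1 FPKM in at least 1 library and summed to between 21987 and 39522 FPKM, while Gfap, a defining marker of PSC, had at most 11 fragments in a library. For the protein, GFAP, the paper reports positive staining of its PSC. Macrophage markers (12 genes) summed to 470 to 1590 FPKM in replicate 2 of the standard model and to 28.3 to 290.8 FPKM elsewhere. Epithelial markers (12 genes) summed to 3.46, 46.1 and 8.64 FPKM in inverse co-culture at 24 h. Their controls had 1.27 to 2.29 FPKM, without overlap, and the other libraries 1.46 to 11.1 FPKM. A median under 0.1 FPKM was found for 9 of the 12. KPC cells were not sequenced, so which of these markers they express was not measured. Endothelial markers (8 genes) summed to 1.22 to 2.95 FPKM and acinar markers (8 genes) to 6.32 to 20.1 FPKM. In bulk RNA, more cells that express a gene and more RNA of it per cell cannot be told apart.

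The promoters of the genes whose levels the results turn on are shown for reference, each running from 250 bases before to 50 bases after a start site in RefSeq (build GRCm38.p6), 5′ to 3′ along the gene. Chst11 is at chr10:82985247-82985546 (plus strand), Chst12 at chr5:140505359-140505658 (plus strand), Chpf at chr1:75479422-75479721 (minus strand) and Vcan, the versican gene, at chr13:89742463-89742762 (minus strand). Vcan is shown because its level followed that of Chst11 more closely than that of nearly all other genes. Capitals mark the GC box GGGCGG and the CCAAT box on either strand.
Chst11: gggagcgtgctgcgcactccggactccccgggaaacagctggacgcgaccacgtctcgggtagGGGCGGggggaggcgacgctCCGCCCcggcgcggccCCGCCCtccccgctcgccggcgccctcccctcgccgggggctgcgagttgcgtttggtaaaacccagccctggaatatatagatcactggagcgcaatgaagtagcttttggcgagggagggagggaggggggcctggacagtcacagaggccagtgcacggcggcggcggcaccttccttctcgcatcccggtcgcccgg
Chst12: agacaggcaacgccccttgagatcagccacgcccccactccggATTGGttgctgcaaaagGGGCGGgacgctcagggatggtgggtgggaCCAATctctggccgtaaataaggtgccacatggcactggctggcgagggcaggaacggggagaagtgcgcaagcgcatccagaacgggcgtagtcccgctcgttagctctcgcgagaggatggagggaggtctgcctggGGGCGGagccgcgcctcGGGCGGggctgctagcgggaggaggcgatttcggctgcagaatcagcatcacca
Chpf: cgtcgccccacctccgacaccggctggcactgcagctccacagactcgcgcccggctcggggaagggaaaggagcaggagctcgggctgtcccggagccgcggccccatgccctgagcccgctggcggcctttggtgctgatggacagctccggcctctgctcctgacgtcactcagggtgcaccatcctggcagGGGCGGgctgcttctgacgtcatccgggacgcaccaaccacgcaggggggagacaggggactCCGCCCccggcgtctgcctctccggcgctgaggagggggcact
Vcan: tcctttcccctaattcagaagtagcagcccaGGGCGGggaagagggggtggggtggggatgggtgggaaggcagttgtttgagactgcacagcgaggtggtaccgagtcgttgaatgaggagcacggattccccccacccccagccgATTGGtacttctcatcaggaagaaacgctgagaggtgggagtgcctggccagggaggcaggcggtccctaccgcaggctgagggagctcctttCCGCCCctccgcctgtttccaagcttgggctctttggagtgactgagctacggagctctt
All 4 hold GGGCGG, 3 times in Chst11 and Chst12 and 2 times in Chpf and Vcan, as 35.7% of all 32851 promoters of this length do. CCAAT was found 2 times in Chst12 and 1 time in Vcan, and 37.4% of promoters hold it. The motifs TATAAA (13.6% of promoters), TGANTCA (7.81%) and GGAATG (14.7%), searched on both strands, were not found in these 4 windows. The GC content was 71.0% in Chst11, 65.0% in Chst12, 71.7% in Chpf and 61.0% in Vcan, and the median of all promoters was 52.7%. No match overlapped another.

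Chst11 (ENSMUSG00000034612, chr10:82985498-83195900 on the plus strand of GRCm38, 3 exons after merging transcripts) was low in every control and high in every co-culture. In the standard model at 24 h, control PSC had 8.03, 8.75 and 9.12 FPKM and co-cultured PSC 20.8, 16.9 and 15.8 FPKM in replicates 1 to 3. At 72 h, the values were 6.25, 7.78 and 8.14 FPKM in controls and 17.5, 14.4 and 16.4 FPKM in co-culture. In the inverse model at 24 h, controls had 8.19, 8.22 and 5.64 FPKM and co-cultured PSC 11.3, 15.9 and 16.6 FPKM. The groups did not overlap in any of these 3 comparisons, and the lowest co-culture value of all was that of replicate 1 of inverse co-culture at 24 h. Inverse controls at 72 h had 9.07, 8.13 and 6.55 FPKM and co-cultured PSC 18.1, 16.9 and 15.9 FPKM, again without overlap. These values rest on 528 to 2184 fragments a library.

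The ratio of the Chst11 group means at 24 h and 72 h was 2.06 and 2.18 in the standard model and 1.98 and 2.15 in the inverse model. Chst11 rose in inverse co-culture at 72 h by the test, with a log2 difference of 1.06 (SE 0.15, limma adjusted p = 0.00774). With each of the 6 libraries left out in turn, that adjusted p was 0.0102 to 0.0443, and it was 0.149 without replicate 1 of both groups. At 24 h in the inverse model, the log2 difference was 0.94 (SE 0.20), and the limma adjusted p of 0.0504 missed the threshold. It was 0.0277 without replicate 1 of inverse co-culture and 0.178 without replicate 2, the library with the highest epithelial marker sum, whose Chst11 level was between those of the other 2. Epithelial marker sums were higher in all 3 inverse co-cultures at 24 h than in their controls. At 72 h they were 4.77 to 11.1 FPKM in inverse co-culture and 2.50 to 6.94 FPKM in controls, which overlap. There, the epithelial marker Krt19 had 1.83, 1.17 and 3.11 FPKM against 0.176, 0.116 and 0 FPKM, while Muc1, another, overlapped its controls. The part of epithelial markers in the differences of the inverse model was not tested at either time. In the standard model, the log2 differences of 1.00 (SE 0.16) at 24 h and 1.08 (SE 0.16) at 72 h had limma adjusted p-values of 0.634 and 0.362. Same-numbered libraries of the standard model deviated together from their group means, and in a limma model with that number as a block, Chst11 rose at 24 h (adjusted p = 0.0304) and not at 72 h (adjusted p = 0.22). In one limma model over all 24 libraries, the adjusted p was 0.0405 at 24 h and 0.00991 at 72 h for the standard model. Within the 3 same-numbered pairs of the standard model, Chst11 was higher in co-culture by 1.32, 0.91 and 0.76 on the log2 scale at 24 h and by 1.41, 0.85 and 0.97 at 72 h.

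In inverse co-culture at 72 h, Chst11 rose and Chpf fell, 2 of the 9 enzymes tested, while 12.8% of all 13066 genes tested were called. At 24 h, 0 of 9 enzymes passed the limma test in the inverse model against 2.47% of 12827 genes. An unadjusted limma p under 0.05 was found for 4 enzymes and for 1902 of all genes tested. Voom, limma's test on recovered fragments, called 1 of these enzymes, Chst11 (adjusted p = 0.00984), and 528 of 12821 genes. In standard co-culture, 0 of 9 enzymes and 0% of genes passed at 24 h and at 72 h, although 371 and 800 genes had an unadjusted p under 0.05, Chst11 alone of the enzymes at each time, and voom also called 0 genes. The block brought the calls in standard co-culture to 1.22% of genes at 24 h, Chst11 among them, and to 0.00777% of genes, which is 1 gene and no enzyme, at 72 h. Groups without overlap in either direction were found for 7.73% of genes in standard co-culture at 24 h, 13.1% at 72 h, and in the inverse model for 21.2% and 38.3%. Among the 9 enzymes tested, this held for Chst11 and Chsy1 in standard co-culture at either time, for Chst11, Chst12, Chst15 and Chsy3 in inverse co-culture at 24 h, and for Chst11, Chst12, Chsy1, Chsy3 and Chpf at 72 h. Of the 12253 genes tested in all 4 comparisons, 0.588% were higher without overlap in each, and Chst11 was 1 of these 72 genes. A further 0.637% were lower without overlap in each, and no enzyme was among them. The median log2 difference of the 9 enzymes was 0.10 and -0.05 in standard and -0.04 and -0.32 in inverse co-culture, beside -0.01, -0.09, -0.06 and -0.16 for all genes tested. The study itself singled out Chst11 on these libraries, so its place here is no independent evidence.

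**Figure D1:**
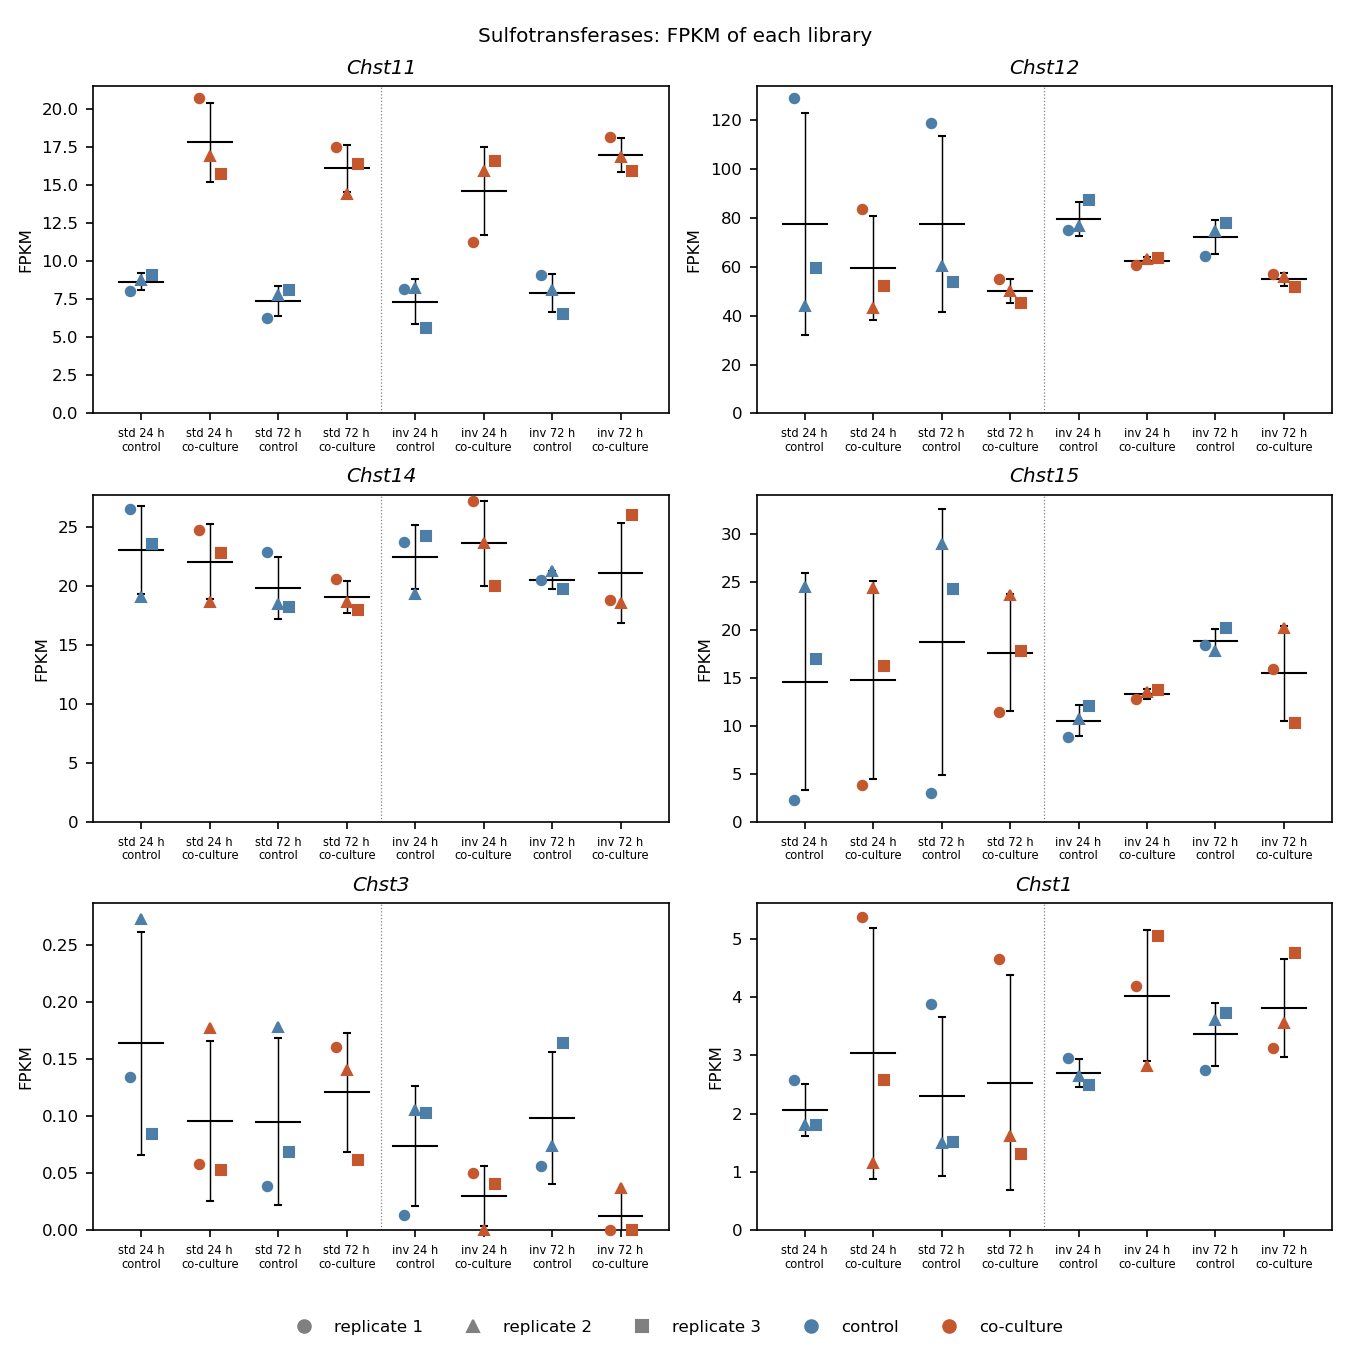
Levels of the 6 sulfotransferase genes in FPKM (vertical axes from 0) in the 8 groups, with 1 point for each library, a line at the group mean and bars of 1 SD; std is the standard and inv the inverse model. Chst11 lies between 11.3 and 20.8 FPKM in co-cultured and between 5.64 and 9.12 FPKM in control PSC. Replicate 1 of the standard model is low in Chst15 and, in all but the 72 h co-culture, high in Chst12.

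Chst12 (ENSMUSG00000036599, chr5:140505550-140525724 on the plus strand, 2 merged exons) also sulfates position 4 of chondroitin. In inverse co-culture at 24 h it had 60.8, 63.3 and 63.4 FPKM against 74.8, 76.5 and 87.4 FPKM in controls. At 72 h it had 57.1, 55.6 and 51.9 FPKM against 64.2, 74.5 and 77.7 FPKM. Both inverse co-cultures lay below their controls without overlap. The log2 difference was -0.34 (SE 0.10, limma adjusted p = 0.137) at 24 h and -0.39 (SE 0.11, limma adjusted p = 0.0514) at 72 h. At 72 h, limma's voom test on recovered fragments gave an adjusted p of 0.0403, and the median log2 difference of all genes was itself -0.16. Median-of-ratios scaling, which brings that median to -0.02, gave Chst12 a log2 difference of -0.24 and a limma adjusted p of 0.208. Over all genes it turned 427 higher and 1251 lower calls at 72 h into 704 and 697, and 139 and 178 at 24 h into 178 and 145. In the standard model, replicate 1 had 129.1 and 118.9 FPKM in its controls and 83.6 and 55.1 FPKM in its co-cultures at 24 h and 72 h. Replicates 2 and 3 lay between 43.0 and 60.1 FPKM, so replicate 1 stood apart in all but the 72 h co-culture. The log2 differences there were -0.28 (SE 0.44, limma adjusted p = 1.0) at 24 h and -0.54 (SE 0.30, limma adjusted p = 0.799) at 72 h. Without replicate 1 they came to -0.11 and -0.26 on the log2 scale.

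Chst11, Chst12 and Chst14 all transfer sulfate to position 4, the last on dermatan sulfate, and the part of Chst11 in their summed FPKM differed between co-culture and control in every comparison. In control PSC of the standard model, Chst11 made up 4.91%, 12.2% and 9.92% of the sum at 24 h and 4.22%, 9.02% and 10.2% at 72 h. In standard co-culture it made up 16.1%, 21.6% and 17.4% at 24 h and 18.8%, 17.3% and 20.6% at 72 h. Inverse controls had shares from 4.81% to 9.68%, and inverse co-cultures from 11.3% to 19.3%. The summed level itself was 71.7 to 163.6 FPKM in standard and 93.7 to 117.2 FPKM in inverse controls, and 78.5 to 129.1 FPKM and 91.0 to 102.8 FPKM in co-culture. As the share is made from values already tested, no test is given for it. These shares depend on the gene lengths behind FPKM, which were 5527 bases for Chst11, 1548 bases for Chst12 and 2040 bases for Chst14, where the annotated exons cover 5527, 2362 and 2090 bases.

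**Figure D2:**
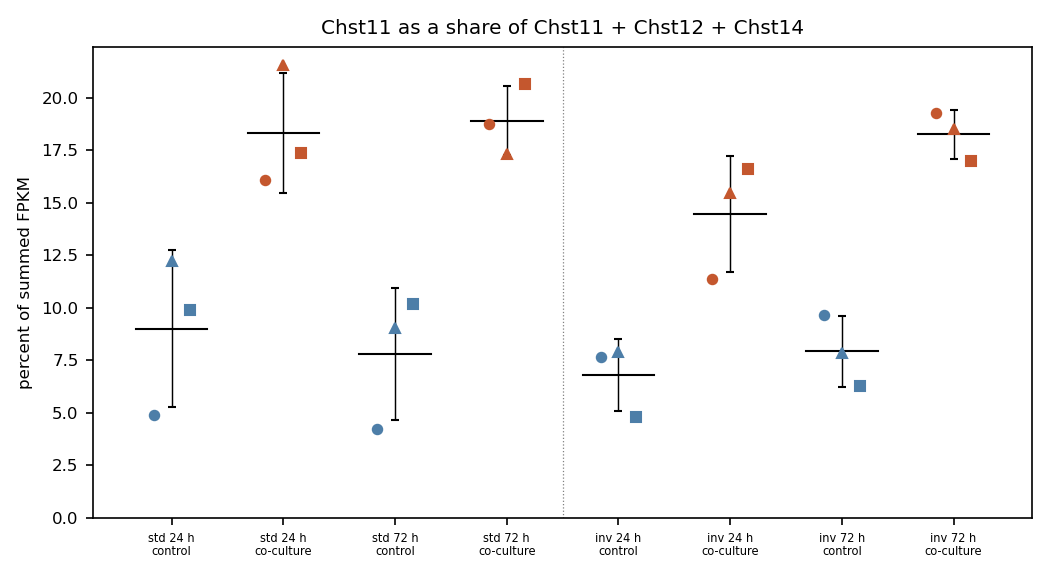
Share of Chst11 in the summed FPKM of Chst11, Chst12 and Chst14, in percent (vertical axis from 0), in the 8 groups, with blue (control) and orange (co-culture) points for each library (circle, triangle and square for replicates 1 to 3), a line at the group mean and bars of 1 SD. Co-cultured PSC lie between 11.3% and 21.6% and control PSC between 4.22% and 12.2%, without overlap within any model and time point.

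Chst14 (ENSMUSG00000074916, chr2:118926496-118928585 on the plus strand, 1 merged exon), the dermatan 4-O-sulfotransferase, had 17.9 to 27.2 FPKM over all 24 libraries. Its log2 differences were between -0.06 and 0.07 over the 4 co-culture comparisons, with 95% intervals of -0.34 to 0.41 in the inverse model at 24 h and -0.32 to 0.37 at 72 h. These intervals, like the others given here, are limma's for a single gene and are not adjusted.

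Chst15 (ENSMUSG00000030930, chr7:132235780-132317228 on the minus strand) adds a sulfate at position 6 to 4-sulfated N-acetylgalactosamine, which gives the doubly sulfated chondroitin sulfate E. In the standard model, replicate 1 had 2.30 and 3.03 FPKM in its 24 h and 72 h controls and 3.90 and 11.5 FPKM in the matching co-cultures. Replicates 2 and 3 had 16.2 to 29.0 FPKM, so all 4 libraries of replicate 1 lay below all 8 others. For comparison, 16.2% of the 14452 genes above 1 FPKM in at least 3 libraries separated replicate 1 from the others of the standard model in this way. The standard co-culture differences of 0.19 (SE 1.00) and 0.34 (SE 0.81) on the log2 scale therefore had wide 95% intervals, which ran from -2.23 to 2.61 for the earlier and from -1.61 to 2.29 for the later time. In the inverse model, Chst15 was called only between controls, in which it rose from 8.88, 10.7 and 12.1 FPKM at 24 h to 18.4, 17.9 and 20.2 FPKM at 72 h. That log2 difference was 0.82 (SE 0.14, limma adjusted p = 0.00526), in a comparison in which 19.2% of all 13092 genes passed, and in one limma model over all 24 libraries its adjusted p was 0.579. Inverse co-culture at 24 h had 12.8, 13.5 and 13.8 FPKM, above its controls without overlap, with a log2 difference of 0.34 (SE 0.15, limma adjusted p = 0.325). At 72 h, co-cultured PSC had 15.9, 20.2 and 10.3 FPKM and overlapped their controls. Exons of Chst15 share 1206 bases with Gm10584 on the opposite strand, and the counting did not use strand, so reads of the 2 genes cannot be told apart there.

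Chst3 (ENSMUSG00000057337, chr10:60181532-60219260 on the minus strand), the main chondroitin 6-O-sulfotransferase, was at 0.273 FPKM or less in every library. It had 0 to 22 fragments with a median of 6, and 3 libraries had none, where a count of 0 allows up to 3 fragments. In the inverse model at 72 h, controls had 6, 6 and 18 fragments and co-cultured PSC 0, 3 and 0. These last groups do not overlap, but Chst3 passed the filter in no comparison and was not tested.

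Chst1 (ENSMUSG00000027221, chr2:92599707-92615250 on the plus strand, 3 merged exons) is better known as the sulfotransferase of galactose in keratan sulfate. It was at 1.15 to 5.37 FPKM. In the standard model, replicate 1 had 2.58 to 5.37 FPKM and the other replicates 1.15 to 2.57 FPKM. Inverse co-culture at 24 h had 4.19, 2.82 and 5.05 FPKM against 2.95, 2.65 and 2.49 FPKM, which overlap. The log2 difference there was 0.47 (SE 0.23, limma adjusted p = 0.405), and those of the other 3 comparisons were 0.05 to 0.29.

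**Figure D3:**
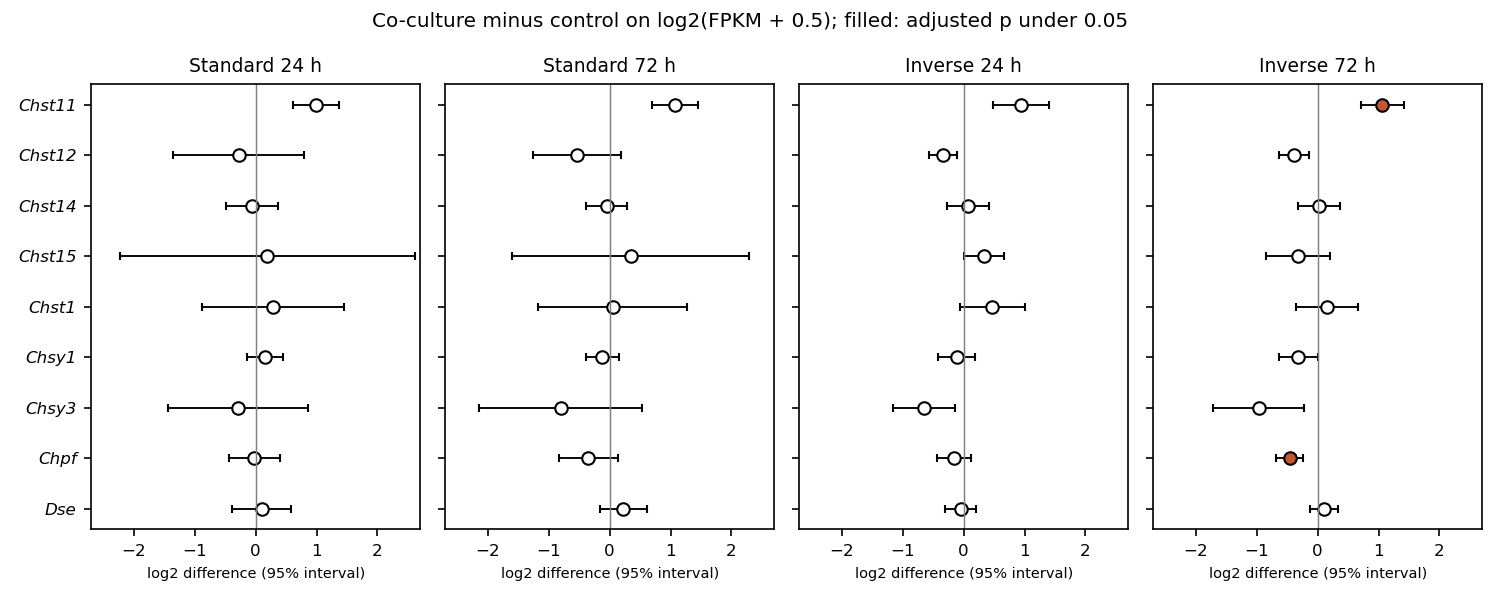
Difference between co-culture and control in log2(FPKM + 0.5) (horizontal axes) for the 9 enzymes tested, in the 4 comparisons, with 95% intervals of the limma fit as bars and filled points for an adjusted p under 0.05. Chst11 is near 1 in all 4 panels, and filled points are seen for Chst11 and Chpf in inverse co-culture at 72 h.

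Chpf (ENSMUSG00000032997, chr1:75474569-75479307 on the minus strand, 4 merged exons), the chondroitin polymerizing factor, had the highest FPKM of the 10 genes, with 88.0 to 177.0. In the inverse model at 72 h, controls had 173.8, 158.2 and 177.0 FPKM and co-cultured PSC 115.7, 125.1 and 128.4 FPKM. The groups did not overlap, and Chpf fell by 0.46 on the log2 scale (SE 0.10, limma adjusted p = 0.0222). Under median-of-ratios scaling the log2 difference was -0.31 and the limma adjusted p 0.0606. It also missed the threshold without replicate 1 of co-culture (limma adjusted p = 0.0921), without replicate 1 of the controls (0.0904) and without replicate 3 of the controls (0.0982). Macrophage markers differed between the same groups, with sums of 146.2 to 290.8 FPKM in controls and 62.7 to 94.4 FPKM in co-culture, and their part in this result was not tested. At 24 h in the inverse model the log2 difference was -0.16 (SE 0.12, limma adjusted p = 0.628), and in standard co-culture it was -0.03 (SE 0.17) at 24 h and -0.35 (SE 0.20) at 72 h.

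Chsy3 (ENSMUSG00000058152, on chromosome 18), a chondroitin sulfate synthase, had lower means in all 4 co-cultures. In the inverse model at 24 h it had 6.75, 6.54 and 5.09 FPKM in controls and 4.54, 4.12 and 2.63 FPKM in co-culture. At 72 h, controls had 3.56, 6.31 and 3.43 FPKM and co-cultured PSC 2.56, 1.18 and 2.32 FPKM. Neither comparison showed overlap. The log2 differences were -0.66 (SE 0.23, limma adjusted p = 0.203) and -0.97 (SE 0.32, limma adjusted p = 0.0856), and their 95% intervals ran from -1.17 to -0.15 and from -1.72 to -0.22. In the standard model, replicate 1 lay above the others in controls, with 10.0 FPKM at 24 h and 14.3 FPKM at 72 h against 2.51 to 5.98 FPKM. Its co-cultures had 6.62 and 3.20 FPKM. The standard log2 differences were -0.29 (SE 0.47) and -0.80 (SE 0.56), and without replicate 1 they came to -0.15 and -0.20.

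Chsy1 (ENSMUSG00000032640, chr7:66109515-66173798 on the plus strand, 3 merged exons), the main chondroitin sulfate synthase, was at 15.4 to 26.5 FPKM in all libraries. In standard co-culture at 24 h it had 22.5, 26.5 and 23.5 FPKM against 20.5, 22.1 and 22.2 FPKM in controls. At 72 h the order was the other way round, with 20.98, 19.60 and 21.03 FPKM in co-culture and 23.78, 22.41 and 21.09 FPKM in controls. The log2 differences of 0.15 (SE 0.12) and -0.12 (SE 0.11) did not pass the limma test (adjusted p = 1.0 and 0.882). Inverse co-culture at 72 h had 19.3, 20.7 and 15.4 FPKM against 24.8, 23.1 and 21.4 FPKM, a log2 difference of -0.32 (SE 0.14, limma adjusted p = 0.155). Exons of Chsy1 share 148 bases with Gm26827 on the opposite strand.

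Dse (ENSMUSG00000039497, chr10:34151393-34207715 on the minus strand), the dermatan sulfate epimerase, was at 84.9 to 145.3 FPKM. Its log2 differences in co-culture ranged from -0.04 to 0.22, with 95% intervals of -0.30 to 0.21 in the inverse model at 24 h and -0.12 to 0.34 at 72 h. The lowest values were those of replicate 1 of the standard controls, with 84.9 FPKM at 24 h and 95.3 FPKM at 72 h.

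**Figure D4:**
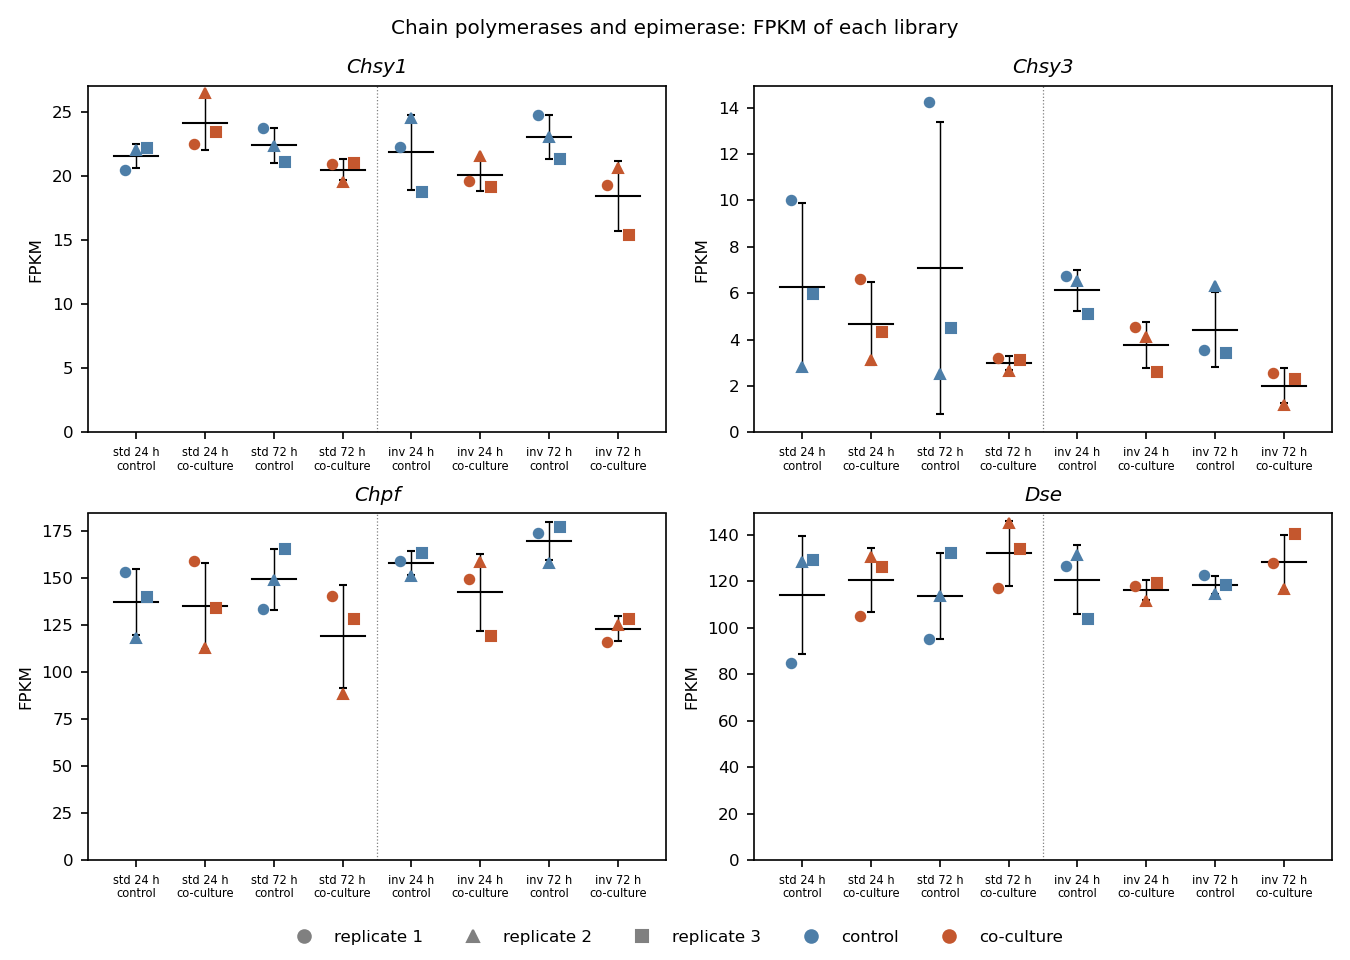
Levels of the polymerase genes Chsy1, Chsy3 and Chpf and of the epimerase gene Dse in FPKM (vertical axes from 0) in the 8 groups, with 1 point for each library, a line at the group mean and bars of 1 SD. Chpf in inverse co-culture at 72 h (115.7 to 128.4 FPKM) lies below its controls (158.2 to 177.0 FPKM), and replicate 1 of the standard controls is high in Chsy3.

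By median FPKM over the 24 libraries, Chpf (144.7) and Dse (121.1) came first, followed by Chst12 (60.5), Chsy1 (21.5), Chst14 (20.5), Chst15 (16.1), Chst11 (10.2), Chsy3 (3.84), Chst1 (2.78) and Chst3 (0.066). Levels of Chsy1 and Chst14 overlapped over the libraries, as did those of Chst14 and Chst15. The order of levels depends on the gene length behind FPKM, which was recovered from the values. It was 1366 bases for Dse and 1548 bases for Chst12, where the annotated exons cover 4980 and 2362 bases, and it equalled the exonic length for Chst11 (5527 bases), Chst1 (2680 bases) and Chsy1 (4176 bases). Per exonic length, the median of Dse would be 33.2 and that of Chst12 39.6, so Chst12 would come before Dse. Likewise Chst11 (10.2) would come before Chst15 (6.88) and Chst1 (2.78) before Chsy3 (1.56). Comparisons of 1 gene between libraries do not depend on the length.

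The co-culture effect was then compared between the models, over all 24 libraries. At the same time label, exposure to KPC cells was longer in the inverse model. None of the 9 enzymes passed at 24 h or 72 h, nor did any gene (0% of 14452 at each time by limma and by voom, with 182 and 501 genes at an unadjusted limma p under 0.05). For Chst11, the inverse effect minus the standard effect was -0.05 (95% interval -0.56 to 0.45) on the log2 scale at 24 h and -0.01 (-0.52 to 0.49) at 72 h. For Chst15 the interval was much wider, from -2.89 to 1.56 at 72 h. Between controls of the inverse and the standard model, no enzyme passed the limma test at 24 h (0% of 12903 genes) or at 72 h (0% of 13106 genes), where 225 and 810 genes had an unadjusted p under 0.05. Nor did any enzyme pass between standard controls at 72 h and 24 h (0% of 12963 genes, 127 at an unadjusted p under 0.05, and 0% also with the block). Voom called 0 genes in these 3 comparisons of controls. Chst11 in controls had a log2 difference between times of -0.22 in the standard and 0.11 in the inverse model, neither of which passed.

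Other steps of the pathway were described by lists of genes. The 7 enzymes that build the linker between core protein and chain were all tested, and none passed the limma test in any co-culture comparison. The same held for the 7 other chondroitin and dermatan sulfate enzymes, of which 5 to 6 were tested, and for the 5 other keratan sulfate enzymes, of which 2 were tested. At 72 h in the inverse model, 1 linker gene, 3 of the other chondroitin and dermatan sulfate enzymes and 1 keratan sulfate enzyme had an unadjusted limma p under 0.05. So did 4205 of all 13066 genes tested. Of the genes in these lists, voom called 2, Chst7 and Csgalnact2, and Chst7 also at 24 h, names given here after their values were seen. Over all genes, voom called 2095 of 13061 at 72 h and 528 of 12821 at 24 h. Both enzymes were lower in co-culture. At 72 h, mean Chst7 was 0.503 against 1.78 FPKM in controls, and Csgalnact2 13.96 against 18.04 FPKM. At 24 h, Chst7 was 0.863 against 2.75 FPKM. Its co-cultures had 0.772, 1.23 and 0.591 FPKM at 24 h and 0.657, 0.417 and 0.437 FPKM at 72 h. All its controls were above 1 FPKM, so Chst7 met the filter through the group where it was high. Its calls are therefore given as a description. Of 15 genes that supply the sulfate donor and sugar nucleotides, 1 rose in inverse co-culture at 24 h and 1 rose at 72 h. Of all genes tested, 2.47% and 12.8% were called in either direction at these times. Gfpt2, which feeds the hexosamine pathway, was at 58.1 ± 3.23 FPKM against 34.8 ± 3.56 (SD, n = 3) at 24 h, a log2 difference of 0.73 (SE 0.11, limma adjusted p = 0.0165). Ugdh, which makes UDP-glucuronic acid, was at 56.1 ± 4.44 against 41.3 ± 1.90 FPKM at 72 h, a log2 difference of 0.43 (SE 0.10, limma adjusted p = 0.0321), and its groups did not overlap in any of the 4 comparisons.

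Among 10 genes for the breakdown of these chains, 3 fell in inverse co-culture at 72 h and none rose, with a median log2 difference of -0.53 over the list and of -0.16 over all genes. Over all 13066 genes tested, 427 were called higher and 1251 lower. The 3 genes were Hexa, a subunit of lysosomal hexosaminidase, with 76.6 ± 6.41 against 129.2 ± 21.9 FPKM, Gusb, the beta-glucuronidase, with 34.4 ± 2.99 against 51.1 ± 6.78 FPKM, and Idua, the iduronidase, with 9.02 ± 0.45 against 13.8 ± 0.79 FPKM (SD, n = 3 each). Their limma adjusted p-values were 0.0185, 0.0321 and 0.0214, and under median-of-ratios scaling they were 0.0302, 0.0723 and 0.0513. Macrophage markers were lower in the same co-cultures, as given for Chpf, and their part was not tested.

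Core proteins that can carry chondroitin or dermatan sulfate made up a list of 21 genes, of which 11 to 12 were tested, and 2 of them rose and 1 fell in inverse co-culture at 24 h. At 72 h, 2 rose and none fell. Of all genes tested, 2.47% were called at 24 h and 12.8% at 72 h. Vcan, the large proteoglycan versican, had 36.7, 33.2 and 22.2 FPKM in inverse controls at 24 h and 50.7, 69.9 and 87.2 FPKM in co-culture. At 72 h its values were 46.1, 42.9 and 22.9 FPKM in controls and 79.4, 81.1 and 79.4 FPKM in co-culture, again without overlap. The log2 differences were 1.16 (SE 0.23, limma adjusted p = 0.0391) and 1.15 (SE 0.24, limma adjusted p = 0.0233). In standard co-culture, Vcan had 76.1, 93.1 and 107.0 FPKM at 24 h against 24.3, 34.9 and 32.4 FPKM, and with the replicate block it rose by 1.58 on the log2 scale (limma adjusted p = 0.00971, and 0.634 without the block). At 72 h in the standard model the log2 difference of 1.49 had limma adjusted p-values of 0.362 and, with the block, 0.15. Col15a1, a basement membrane collagen, rose in inverse co-culture at 24 h from 533.1 ± 58.3 to 943.6 ± 129.5 FPKM (limma adjusted p = 0.0168), and Cd44, the hyaluronan receptor, rose at 72 h from 30.3 ± 1.02 to 49.8 ± 11.7 FPKM (limma adjusted p = 0.0349). Ptprz1, a receptor phosphatase, fell at 24 h from 7.89 ± 0.92 to 2.61 ± 0.25 FPKM (SD, n = 3, limma adjusted p = 0.00755).

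Heparan sulfate, the sister chain built on the same linker, was compared through 22 chain enzymes, of which 14 were tested. In inverse co-culture, 2 rose and none fell at 24 h, and 2 rose and 3 fell at 72 h, again beside 2.47% and 12.8% of all genes called. Macrophage markers were lower in the 72 h co-cultures, as given for Chpf, and their part was not tested. Sulf1, which removes 6-O-sulfate outside the cell, rose at 24 h from 90.3 ± 5.53 to 176.5 ± 22.7 FPKM and at 72 h from 137.5 ± 19.4 to 215.2 ± 29.3 FPKM (limma adjusted p = 0.00725 and 0.0282). Sulf2, which acts alike, fell at 72 h from 300.0 ± 23.9 to 111.4 ± 43.0 FPKM (limma adjusted p = 0.0153). The sulfotransferase Hs3st1 rose at 24 h by 1.52 and Hs6st1 rose at 72 h by 0.81 on the log2 scale (limma adjusted p = 0.0159 and 0.00843). At 72 h, Extl3, a glycosyltransferase, fell by 0.56 on the log2 scale (limma adjusted p = 0.0126). Ndst3, an N-deacetylase and N-sulfotransferase, was at 0.365 against 1.97 FPKM and fell by 1.53 (limma adjusted p = 0.0212). Ndst3 passed the FPKM filter only through its controls, where it was high, so its call is given as a description. Under quantile normalization its limma adjusted p was 0.0726. With the replicate block, Hs3st1 and Sulf1 also rose in standard co-culture at 24 h (limma adjusted p = 0.0356 and 0.0293), where without it both had an adjusted p of 1.0.

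The pattern of Chst11 over the 24 libraries was compared with that of 14451 other genes by Pearson's r of log2(FPKM + 0.5), as a description only, since the libraries fall into co-cultures and controls. The 5 genes with the highest r were Acsl4 (0.928), Vcan (0.918), Socs5 (0.910), Fgf2 (0.902) and Ttc7 (0.899). Acsl4, Vcan, Socs5 and Fgf2 were higher without overlap in all 4 co-cultures, and Ttc7 in 3, with an overlap in the standard model at 72 h. Vcan, a core protein for chondroitin sulfate, was the only one of the 5 in the lists described here. Among the other enzymes, r with Chst11 was highest for Dse (0.33) and lowest for Chst12 (-0.53), Chsy3 (-0.51) and Chpf (-0.51).

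**Figure D5:**
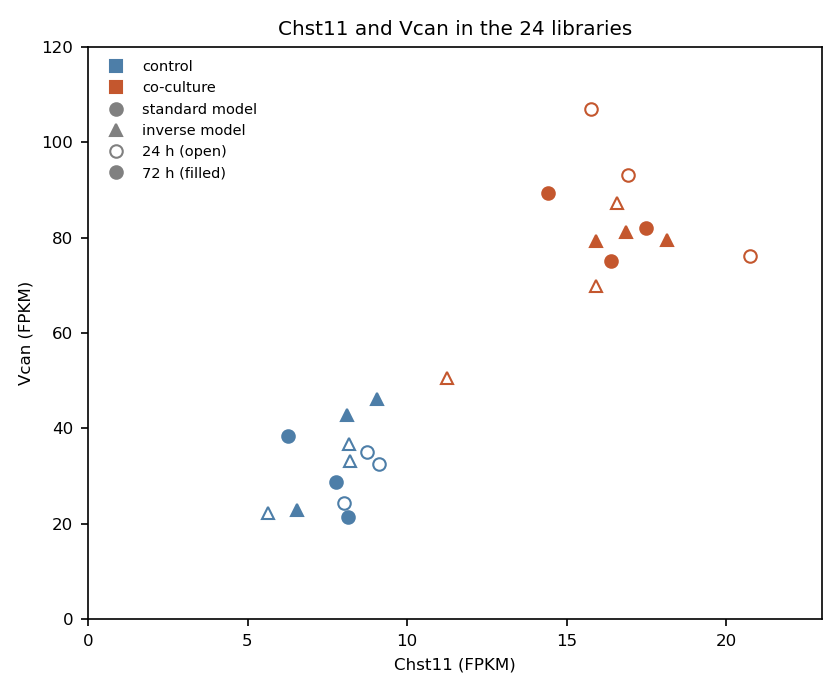
Level of Vcan (vertical axis) against that of Chst11 (horizontal axis), both in FPKM on linear axes from 0, in the 24 libraries, with colours for control and co-culture, circles for the standard and triangles for the inverse model, and open points for 24 h. Controls lie at 21.5 to 46.1 FPKM of Vcan and co-cultures at 50.7 to 107.0 FPKM, and the co-culture nearest the controls is replicate 1 of the inverse model at 24 h.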

How the data were processed

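RNA of PSC was sequenced in 24 libraries of 8 groups. The authors had reads filtered, aligned with HISAT2 (2.0.5) to GRCm38 and counted with featureCounts (1.5.0-p3) at default settings, which disregard strand, and deposited FPKM values of 53801 genes. DESeq2 (1.20.0), named in the submitters' notes, was run by them on counts not used here. The annotation release is not given in the sources used here. Genes were matched to GENCODE M21 (53706 matched), and 9 of the 10 enzymes and Vcan to RefSeq promoters by symbol. For 28879 of 28892 genes above 0, a single gene length gave whole fragments (within 0.02, or a small share of abundant genes) in all libraries, and these fragments summed to 99.96% to 99.98% of the library totals. Chst3 alone among the enzymes was below the FPKM filter.

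limma 3.58.1 (R 4.3.3) was run with an intensity trend on log2(FPKM + 0.5), a scale that understates changes of low genes, for genes with FPKM above 1 in at least 3 libraries fitted. Each co-culture was compared with its control, the effects between models, and controls between times and models. Fits were tested on simulated data with 200 changed genes. At 24 h, 13% of log2 changes of 1 were recovered in standard co-culture, 67% in inverse co-culture and 33% between models. For log2 changes of 2 the shares were 65%, 87% and 70%. A result that did not pass, above all in the standard model or between models, is therefore no sign of an unchanged gene. With 3 libraries against 3, an exact permutation test cannot go below 0.1, so none was run. Deviations of same-numbered libraries from group means correlated over genes at 0.46 to 0.77 (24 h) and 0.39 to 0.54 (72 h) in the standard model. In the inverse model they correlated at -0.12 to 0.1. The replicate block is therefore reported with the results of the standard model alone, and for the inverse model only among the alternatives. Named were all 10 enzymes, genes of the other lists called in a co-culture comparison with or without block (1 such gene of the sugar nucleotide list, and part of the KPC genotype, are not reported here), Vcan, Chst7 and Csgalnact2 (chosen after their values were seen), and the 5 genes most like Chst11. Enzymes and lists were chosen with earlier results of these data known. Alternatives were pseudocounts of 1 and 0.1, no filter, a mean FPKM above 5, median-of-ratios scaling, quantile normalization, no trend, other libraries in the model, the block, voom on recovered fragments, an adjusted p under 0.01, and libraries left out singly and, a choice made after seeing the data, by replicate number.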

Additional observations from a re-analysis of the deposited data

Results flagged for a closer look

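Chsy1 differed in direction between the time points of the standard model. All 3 co-culture libraries lay above the control mean at 24 h, with a log2 difference of 0.155 (SE 0.12), and all 3 lay below it at 72 h, with -0.123 (SE 0.11). Neither difference passed the limma test, and the difference between the times was not tested.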

How the results depend on the processing

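Among 1894 recomputed values of the enzymes, 1870 kept their direction or stayed uncalled, 13 lost and 11 gained a call, and no called value turned its sign. A change of sign without a call was seen in 152 values. Where causes are not named, the cause was not tested. In standard co-culture, the number of enzymes called moved from 0 to 1 (Chst11) at 24 h with the replicate block and with all 24 libraries in 1 model, and at 72 h with the latter. In inverse co-culture at 24 h it moved from 0 to 1 (Chst11) with a pseudocount of 1, a mean FPKM above 5, all 24 libraries in 1 model and voom, and it was 0 to 1 with libraries left out. At 72 h it moved from 2 to 1 with median-of-ratios scaling, no intensity trend, all 24 libraries in 1 model, the replicate block and an adjusted p under 0.01, and was 3 with a mean FPKM above 5 and with voom, which added Chst12. It was 0 to 2 with libraries left out, and 0 without replicate 1 of both groups, where the limma adjusted p was 0.149 for Chst11 and 0.296 for Chpf. The call of Chst15 between inverse controls was lost with all 24 libraries in 1 model (0 enzymes), and 1 to 2 enzymes were called with libraries left out, where Chsy3 was added without replicate 2 of the 72 h controls (log2 difference -0.72, limma adjusted p = 0.0344). Calls over all genes ranged from 11 to 528 in inverse co-culture at 24 h (317 as reported), from 331 to 2095 at 72 h (1678) and from 225 to 3072 between inverse controls (2516), and reached 0 at 24 h and 72 h with libraries left out. The block, whose numbers pair libraries in the standard model alone, gave 157 calls at 24 h and 1 at 72 h there, and 16 for the difference between models at 72 h, with no enzyme among these last. In the inverse model it gave 88 calls at 24 h, 902 at 72 h and 1993 between controls. With libraries left out, the other named genes kept their calls in inverse co-culture in 2 (Idua and Ugdh at 72 h) to 8 (Hs6st1 at 72 h, Sulf1 at 24 h) of 9 fits, and Ndst3 in 2 of 3. Chst3, at 0 to 22 fragments a library, was below the FPKM filter in every comparison.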
